A study of Mus musculus with 8 samples.

Results

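The genes described here are 10 genes of the prostaglandin pathway, Ptgs1, Ptgs2, Ptges, Ptgis, Ptgds, Hpgd, Ptger2, Ptger4, Ptgfr and Pla2g4a, in adipose-derived stem cells (ADSCs) of the mouse grown in 2D and in 3D. They were chosen by symbol, all 10 were found among the 24346 genes that the files list, and all 10 were among the 18862 genes tested, which are those above 0 in at least 1 library. The ADSCs came from the gonadal adipose tissue of wild-type 12-week-old male BALB/c mice, with no transgene and no sort, and were cultured after collagenase digestion. The 4 libraries of 2D cultures came from cells on plastic of mice 2, 3, 4 and 5, and the 4 libraries of 3D cultures came from cells in Matrigel, a basement membrane gel, of mice 1, 4, 5 and 7. Both cultures were therefore sequenced for mice 4 and 5 only, and each library was 1 culture of 1 mouse, so that differences between dishes of 1 mouse were not measured. The paper describes conventional medium for 2D and a separate medium for 3D, tried with and without Wnt3a- and R-Spondin1-conditioned media. The medium and passage of each sequenced culture are not given in the sources used here. Effects of gel, medium and passage cannot be told apart in this comparison.

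Prostaglandins are lipid signals made from arachidonic acid. Cytosolic phospholipase A2 (Pla2g4a) frees arachidonic acid from membranes, the cyclooxygenases COX-1 (Ptgs1) and COX-2 (Ptgs2) turn it into prostaglandin H2, and terminal synthases turn that into prostaglandin E2 (Ptges), prostacyclin (Ptgis) or prostaglandin D2 (Ptgds). Hpgd starts their breakdown, and G protein-coupled receptors read prostaglandin E2 (Ptger2, the EP2 receptor, and Ptger4, the EP4 receptor) and prostaglandin F2alpha (Ptgfr, the FP receptor). Prostaglandin E2 is known as a mediator by which mesenchymal stromal cells act on immune cells, and prostacyclin is known in adipose tissue as a product that acts on preadipocytes.

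The comparison asked how RNA of these genes differed between the 2 cultures. COX-2 and prostacyclin synthase showed the widest gaps. The mean of Ptgs2 was 20.4 times as high in 2D as in 3D, and Ptgis was at 52.2 FPKM or more in each 2D library and was listed at 0 in each 3D library. Ptgs1 was lower in 3D by 4.60 times, while Pla2g4a, which supplies the substrate, was at 63.4 ± 16.5 FPKM in 2D and 68.2 ± 9.65 FPKM in 3D (SD, n = 4 each). The EP4 receptor had a higher mean in 3D and just missed the threshold of the test. Values are FPKM, fragments scaled to the length of the transcript and the depth of the library, quantile normalized over the 8 libraries, and fold changes are on the scale of log2(FPKM + 1), 3D minus 2D, which understates changes of genes with low values. A gene was called where the p of limma's moderated test, adjusted by Benjamini-Hochberg over all genes tested, was below 0.05.

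Of the 10 genes, 4 were called, and all 4 of these were lower in 3D (Ptgs1, Ptgs2, Ptgis and Ptgfr), with 0 higher. Over all genes tested, 41.5% were called, 20.3% as lower and 21.2% as higher in 3D. The median log2 fold change of the 10 genes was -0.0021, and that of all genes tested was 0.0012. The libraries of the cultures did not overlap for 4 of the 10 genes, against 42.5% of all genes. The count of 4 was thus near the share found over the whole table, and the results below concern single genes and not the group. With the mouse as a block, a fit that leaves 1 residual degree of freedom, 0 of the 10 genes and 0 of all genes had an adjusted p below 0.05, and 4 of the 10 had an unadjusted p below 0.05. The 2D libraries of mice 3 and 4 stood apart in mesothelial and other markers, as described below. Without them, 4 genes were called, 1 higher (Ptger4) and 3 lower (Ptgs2, Ptgis and Ptgfr).

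**Figure D1:**
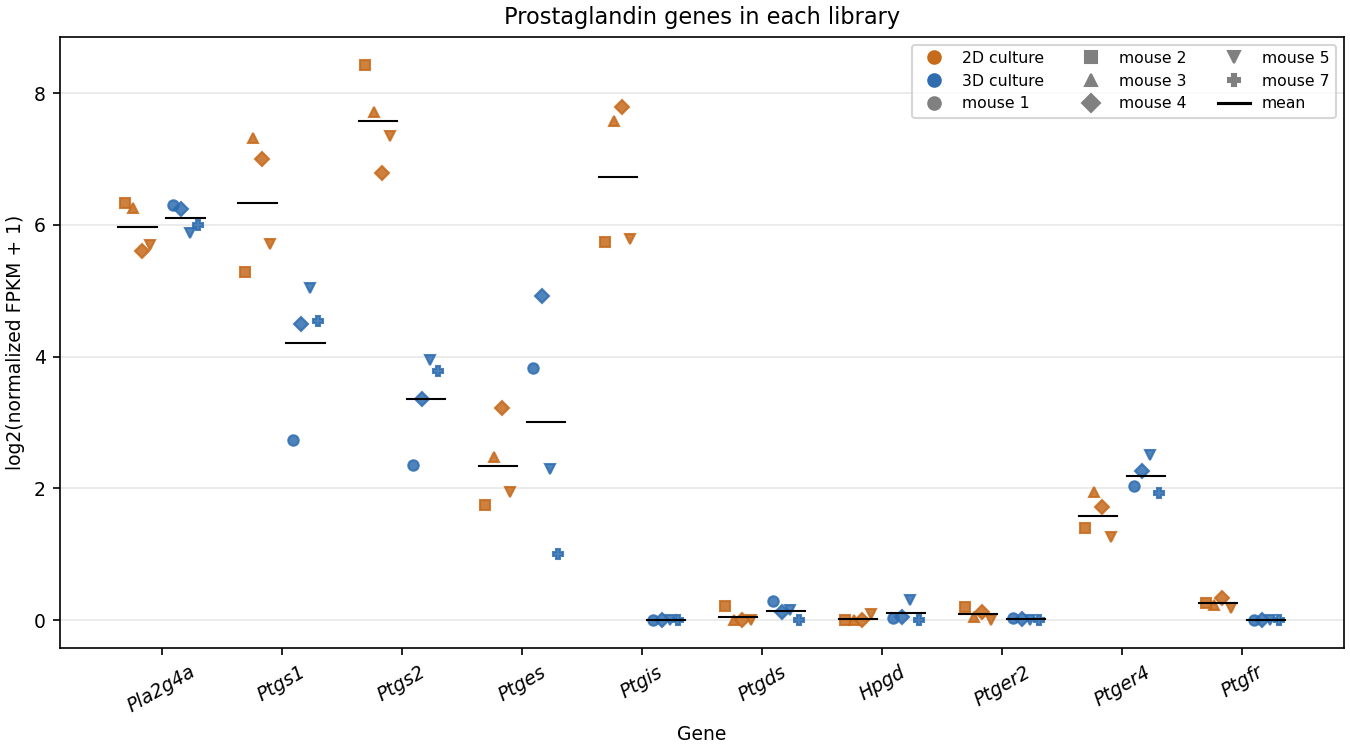
Each point is 1 library and shows log2(normalized FPKM + 1) of the 10 genes in 2D (orange) and 3D (blue) cultures, with symbols for the mice and black lines for the group means on that scale. Ptgs2 and Ptgis have the widest gaps between the cultures, and the cultures overlap for Pla2g4a. Ptgds, Hpgd, Ptger2 and Ptgfr lie near 0 in all libraries.

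The 2D and 3D libraries differed in far more than these genes. Of 12 stromal markers, 11 were lower in 3D, and their summed level was 2161 to 4789 FPKM in 2D and 4.76 to 8.77 FPKM in 3D, with Pdgfrb and Dcn listed at 0 in every 3D library. Lum was near 0 in both cultures, and Twist1 stayed at 4.59 to 7.99 FPKM in 3D. Of the surface markers of ADSCs that the study used, 4 are given here, without its negative marker CD34. All but Thy1, which the stromal list also holds, were taken up after the values were seen. Thy1 (CD90) and Eng (CD105) fell to at most 0.0554 and 0.189 FPKM in 3D. Ly6a (Sca-1) was higher in 3D (24.0 to 165 FPKM in 2D and 58.6 to 3117 FPKM in 3D, with overlap, adjusted p = 0.0432), and Cd44 had 111 ± 27.4 FPKM in 2D and 90.4 ± 21.4 FPKM in 3D (SD, n = 4 each, adjusted p = 0.362). Of 13 epithelial markers, 12 were higher in 3D, with sums of 31.8 to 694 FPKM in 2D and 2747 to 3215 FPKM in 3D, and Esrp1, Elf3 and Crb3 were listed at 0 in every 2D library. Among the 8 mesothelial markers listed of 9, 1 was higher in 3D (Krt19) and 0 lower, and Krt19, which the epithelial list also holds, made up most of the sum in 3D. Without Krt19, the sum of the other 7 was 854 FPKM for mouse 3 and 2148 FPKM for mouse 4 in 2D, against 1.99 and 0.569 FPKM for mice 2 and 5 and 2.57 to 34.0 FPKM in 3D, where Gpm6a was listed at 0 in every library. The 2D libraries of mice 3 and 4 also differed from those of mice 2 and 5 in other markers. Krt8 was at 26.8 and 261 FPKM in them, against 0 and 0.0603 FPKM. Their stromal sums were lower, while the stromal markers Pdgfra and Dcn were higher in them. Macrophage markers summed to 5.41 to 24.8 FPKM in 2D and 124 to 170 FPKM in 3D. In 3D, Cd14 alone was at 81.7 to 164 FPKM. Of the 6, 2 (Cd68 and Cd14) were higher in 3D, while Adgre1 and Lyz2 were listed at 0 there and Lyz2 reached 18.7 FPKM in 2D. None of 5 endothelial and none of the 5 measured of 10 epididymis markers was called, and 1 of the 3 measured of 6 mast cell markers was higher (Kit). The part of these cell type markers in the results below was not tested. Values without the 2D libraries of mice 3 and 4 are given in places. They leave out all that is particular to these 2 libraries and keep the stromal and epithelial differences between the cultures, so they cannot test it either. In bulk RNA, fewer cells that express a gene and less of its RNA per cell cannot be told apart.

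Pla2g4a had 79.6, 75.4, 47.4 and 51.0 FPKM in 2D (mice 2, 3, 4 and 5) and 77.9, 74.8, 57.7 and 62.6 FPKM in 3D (mice 1, 4, 5 and 7). The cultures overlapped along most of their range. The log2 fold change was 0.13 (SE 0.19, 95% interval -0.32 to 0.58, adjusted p = 0.614), so the data allow a change of either sign, and its sign turned to -0.32 on the values as deposited and to -0.18 with upper-quartile scaling. In the 2 mice with both cultures the 3D library was higher by 0.65 (mouse 4) and by 0.18 (mouse 5) on the log2 scale. Pla2g4a lies on the minus strand of chromosome 1 (GENCODE M21, GRCm38, chr1:149829618-149961290), 138.741 kb from Ptgs2.

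Ptgs2, the inducible cyclooxygenase (plus strand, chr1:150100031-150108227), had 345, 209, 110 and 162 FPKM in 2D (mice 2, 3, 4 and 5) and 4.11, 9.19, 14.4 and 12.7 FPKM in 3D (mice 1, 4, 5 and 7). Even the lowest 2D library, of mouse 4, was far above the highest 3D library, of mouse 5. The means were 206 ± 101 and 10.1 ± 4.55 FPKM (SD, n = 4 each), and the log2 fold change was -4.22 (SE 0.44, 95% interval -5.24 to -3.19, adjusted p = 0.00023). In 2D, the mean of mice 3 and 4, whose libraries carried the mesothelial markers, was 0.629 times that of mice 2 and 5. The change between the cultures was of nearly one size in both paired mice, -3.45 in mouse 4 and -3.40 in mouse 5. With the mouse block the log2 fold change was -3.42, with an unadjusted p of 0.00049 and an adjusted p of 0.111, and with any 1 library left out the adjusted p was 0.00033 to 0.00112.

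Ptgs1, the constitutive cyclooxygenase (plus strand, chr2:36230426-36252272), had 38.1, 159, 126 and 51.3 FPKM in 2D (mice 2, 3, 4 and 5) and 5.66, 21.6, 31.9 and 22.3 FPKM in 3D (mice 1, 4, 5 and 7). The cultures did not overlap, but the lowest 2D library (mouse 2) lay close above the highest 3D library (mouse 5). The means were 93.8 ± 58.5 and 20.4 ± 10.9 FPKM (SD, n = 4 each), with a log2 fold change of -2.12 (SE 0.62, 95% interval -3.58 to -0.67, adjusted p = 0.0278). The 2D libraries of mice 3 and 4 held 3.20 times as much Ptgs1 as those of mice 2 and 5, and also more mesothelial marker RNA. Between mice 3 and 4 the order was opposite, with more Ptgs1 in mouse 3 and the higher marker sum in mouse 4. A link between Ptgs1 and these markers was not tested. The call was lost without the 2D library of mouse 3 (adjusted p = 0.0656), without that of mouse 4 (0.0669) and without both (log2 fold change -1.26, adjusted p = 0.173). It was also lost with the mouse block (adjusted p = 0.287), where the paired mice differed, with -2.50 in mouse 4 and -0.67 in mouse 5.

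The 2 cyclooxygenases together thus went from 213 to 383 FPKM in the 2D libraries to 9.77 to 46.3 FPKM in the 3D libraries. Ptgs2 made up 90.0, 56.7, 46.5 and 75.9% of this sum in 2D (mice 2, 3, 4 and 5) and 42.1, 29.8, 31.1 and 36.3% in 3D (mice 1, 4, 5 and 7). The shares did not overlap, and Ptgs1 was the more abundant isoform in all 4 3D libraries but in only 1 of the 4 2D libraries, that of mouse 4. The ratio of Pla2g4a to the cyclooxygenase sum was 0.201 to 0.239 in 2D and 1.25 to 7.97 in 3D. These shares and ratios were not tested. The 3D library of mouse 1 had the lowest level of each cyclooxygenase and the highest of these ratios.

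**Figure D2:**
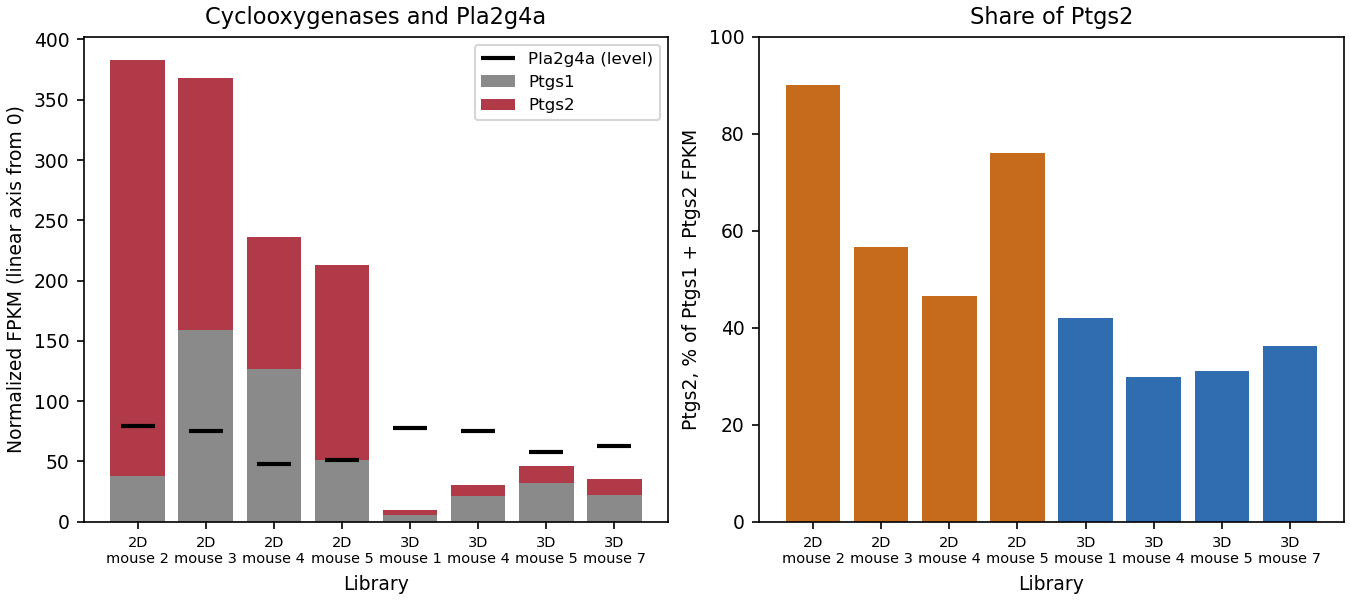
On the left, stacked bars give normalized FPKM of Ptgs1 (grey) and Ptgs2 (red) in each library on an axis from 0, and the black dash gives Pla2g4a. On the right, bars give Ptgs2 as a percentage of both cyclooxygenases, with 46.5 to 90.0% in 2D (orange) and 29.8 to 42.1% in 3D (blue).

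The start sites of the 2 cyclooxygenase genes and of Ptger4 are shown. Both cyclooxygenases were called, and the promoters of the 2 isoforms differ in known ways, while Ptger4 was not called. RefSeq (GRCm38.p6) gave windows for 9 of the 10 genes, from 250 bases before the start of the transcript to 50 after it, and Ptgis is named only. Capitals mark 5 motifs that were searched on both strands, the CRE core CGTCA, the C/EBP palindrome TTGCGCAA, the E-box CACGTG, the TATA box TATAAA and the GC box GGGCGG. The Ptgs1 window is chr2:36230176-36230475 (plus strand), that of Ptgs2 chr1:150099781-150100080 (plus strand) and that of Ptger4 chr15:5244138-5244437 (minus strand).
Ptgs1: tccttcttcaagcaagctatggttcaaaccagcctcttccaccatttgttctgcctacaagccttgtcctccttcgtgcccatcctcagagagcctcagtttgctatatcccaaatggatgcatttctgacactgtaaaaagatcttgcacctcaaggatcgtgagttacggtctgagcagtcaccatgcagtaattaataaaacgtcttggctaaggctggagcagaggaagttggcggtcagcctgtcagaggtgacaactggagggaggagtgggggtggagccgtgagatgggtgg
Ptgs2: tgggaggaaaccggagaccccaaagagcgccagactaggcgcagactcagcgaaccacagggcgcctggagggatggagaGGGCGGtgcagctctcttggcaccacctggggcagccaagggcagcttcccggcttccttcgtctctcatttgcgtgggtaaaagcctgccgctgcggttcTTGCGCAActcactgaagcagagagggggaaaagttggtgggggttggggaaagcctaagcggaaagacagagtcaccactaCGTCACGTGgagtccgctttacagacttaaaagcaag
Ptger4: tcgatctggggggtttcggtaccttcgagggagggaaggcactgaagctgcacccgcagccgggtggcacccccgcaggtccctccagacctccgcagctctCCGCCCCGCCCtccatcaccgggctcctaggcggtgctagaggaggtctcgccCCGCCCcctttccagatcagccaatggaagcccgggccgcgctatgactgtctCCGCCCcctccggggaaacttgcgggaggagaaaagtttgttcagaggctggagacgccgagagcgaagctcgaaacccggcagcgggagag
The Ptgs2 window held the GC box at -170, the C/EBP palindrome at -69, the CRE core at 14 and the E-box at 17, counted from the RefSeq start of the transcript, and the latter pair share bases. None of the 5 motifs was in the Ptgs1 window, and the Ptger4 window held 4 GC boxes on the reverse strand, at -148, -143, -95 and -42, of which the first 2 share a base. Of 32851 mouse windows, 20.8% held the CRE core, 0.183% the C/EBP palindrome, 7.15% the E-box, 13.6% the TATA box and 35.7% the GC box. These matches describe the letters of the windows and not binding.

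Ptgis, prostacyclin synthase (minus strand, chr2:167191805-167240604), had 52.2, 190, 220 and 54.2 FPKM in 2D (mice 2, 3, 4 and 5) and was listed at 0 in all 4 3D libraries. It was the second most abundant of the 10 genes in 2D. At the depth of these libraries, 3 fragments would have given 0.114 to 0.137 FPKM, so that the 3D value is a limit of detection and no fold is given. The fitted log2 fold change on the scale with 1 added was -6.72 (SE 0.50, adjusted p = 4.2e-05). As with Ptgs1, the 2D libraries of mice 3 and 4 were higher than those of mice 2 and 5, by 3.85 times. The call held without either or both of them and was lost with the mouse block (unadjusted p = 0.00917, adjusted p = 0.115).

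**Figure D3:**
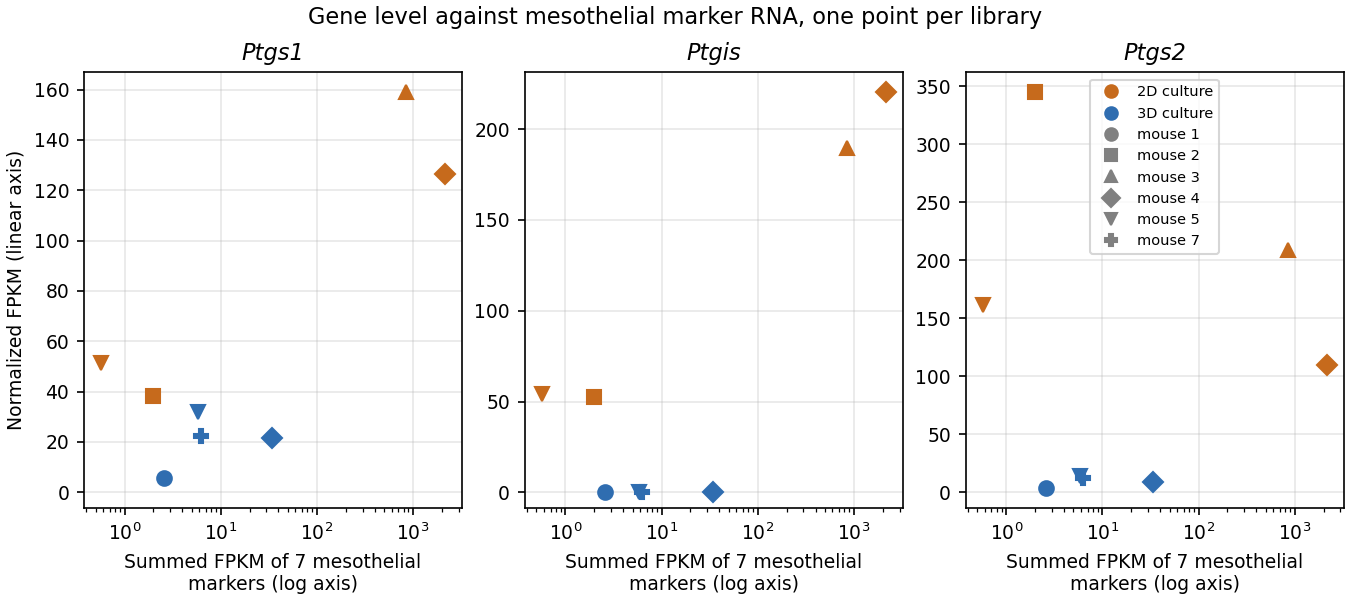
Each point is 1 library, with the summed normalized FPKM of 7 mesothelial markers (Krt19 left out) on a log axis and the level of Ptgs1, Ptgis or Ptgs2 on a linear axis. The 2D libraries of mice 3 and 4, with sums of 854 and 2148 FPKM, have the highest Ptgs1 and Ptgis but not the highest Ptgs2, and the 3D libraries, with sums of 2.57 to 34.0 FPKM, lie lower in all 3 genes than every 2D library.

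Ptges, the inducible prostaglandin E synthase (minus strand, chr2:30889471-30929863), had 2.34, 4.54, 8.28 and 2.85 FPKM in 2D (mice 2, 3, 4 and 5) and 13.3, 29.2, 3.91 and 1.01 FPKM in 3D (mice 1, 4, 5 and 7). It was the most variable of the 10 genes among 3D libraries in which it was above 0 throughout, with a highest value 28.9 times the lowest, against 3.54 times in 2D. The 3D libraries lay on both sides of the 2D libraries, and the log2 fold change of 0.67 (SE 0.82, 95% interval -1.23 to 2.57, adjusted p = 0.537) was not called. It went from 0.04 to 1.35 as 1 library at a time was left out. The interval leaves room for a rise as well as for a fall of more than 2 times. Ptgds, the lipocalin-type prostaglandin D synthase (minus strand, chr2:25466709-25470046), reached at most 0.217 FPKM in any library. Its deposited values were at or under the level of 3 fragments of each library, 0.301 to 0.361 FPKM, and it was not called (adjusted p = 0.364).

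Hpgd, which inactivates prostaglandins (plus strand, chr8:56294585-56321043), was listed at 0 in 3 2D libraries and at 0.0631 FPKM in that of mouse 5, and had 0.0253, 0.0375, 0.241 and 0 FPKM in 3D (mice 1, 4, 5 and 7). The 3D library of mouse 5 was the only one of the 8 in which the deposited value passed the level of 3 fragments. The log2 difference of 0.08 (SE 0.07, adjusted p = 0.401) was not called.

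Ptger4 (minus strand, chr15:5206661-5244187) had 1.64, 2.84, 2.28 and 1.41 FPKM in 2D (mice 2, 3, 4 and 5) and 3.12, 3.81, 4.68 and 2.80 FPKM in 3D (mice 1, 4, 5 and 7). The 3D library of mouse 7 fell just below the 2D library of mouse 3, and the other 3D libraries were above every 2D library. The means were 2.04 ± 0.646 and 3.60 ± 0.835 FPKM (SD, n = 4 each), and the log2 fold change of 0.60 (SE 0.21, 95% interval 0.12 to 1.09) had an unadjusted p of 0.0211 and an adjusted p of 0.0507. It was above 0 in both paired mice, 0.55 in mouse 4 and 1.24 in mouse 5, and in all 18 alternative settings, and it passed the threshold in 7 of them. Among these were the values as deposited (0.0175), upper-quartile scaling (0.0136) and the fit without the 2D library of mouse 3 (0.0323), while the adjusted p over all alternatives was 0.0136 to 0.260. In the annotation the gene overlaps Ttc33 on the opposite strand, which was at 8.13 to 17.3 FPKM with a log2 fold change of -0.44 (adjusted p = 0.0942). Whether the FPKM used the strand is not given in the sources used here, so the level of Ptger4 is uncertain to that extent.

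The other receptors of the 10 were near or below the limit of detection. Ptger2 (plus strand, chr14:44988195-45003820) had 0.151, 0.0337, 0.0890 and 0 FPKM in 2D and 0.0185, 0.0123, 0 and 0 FPKM in 3D, and its log2 difference of -0.08 (SE 0.04, adjusted p = 0.167) was not called. Ptgfr (minus strand, chr3:151796502-151837630) had 0.192, 0.176, 0.265 and 0.131 FPKM in 2D and was listed at 0 in all 4 3D libraries. It was called (log2 fold change -0.25, SE 0.04, adjusted p = 0.00096), yet only 2 of the 4 2D libraries passed in their deposited values the level of 3 fragments, 0.129 to 0.156 FPKM, and the mouse block ended the call (adjusted p = 0.175). Of the RNA of the EP receptors EP1 to EP4, Ptger4 made up 14.0 to 21.6% in 2D and 27.5 to 41.7% in 3D.

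**Figure D4:**
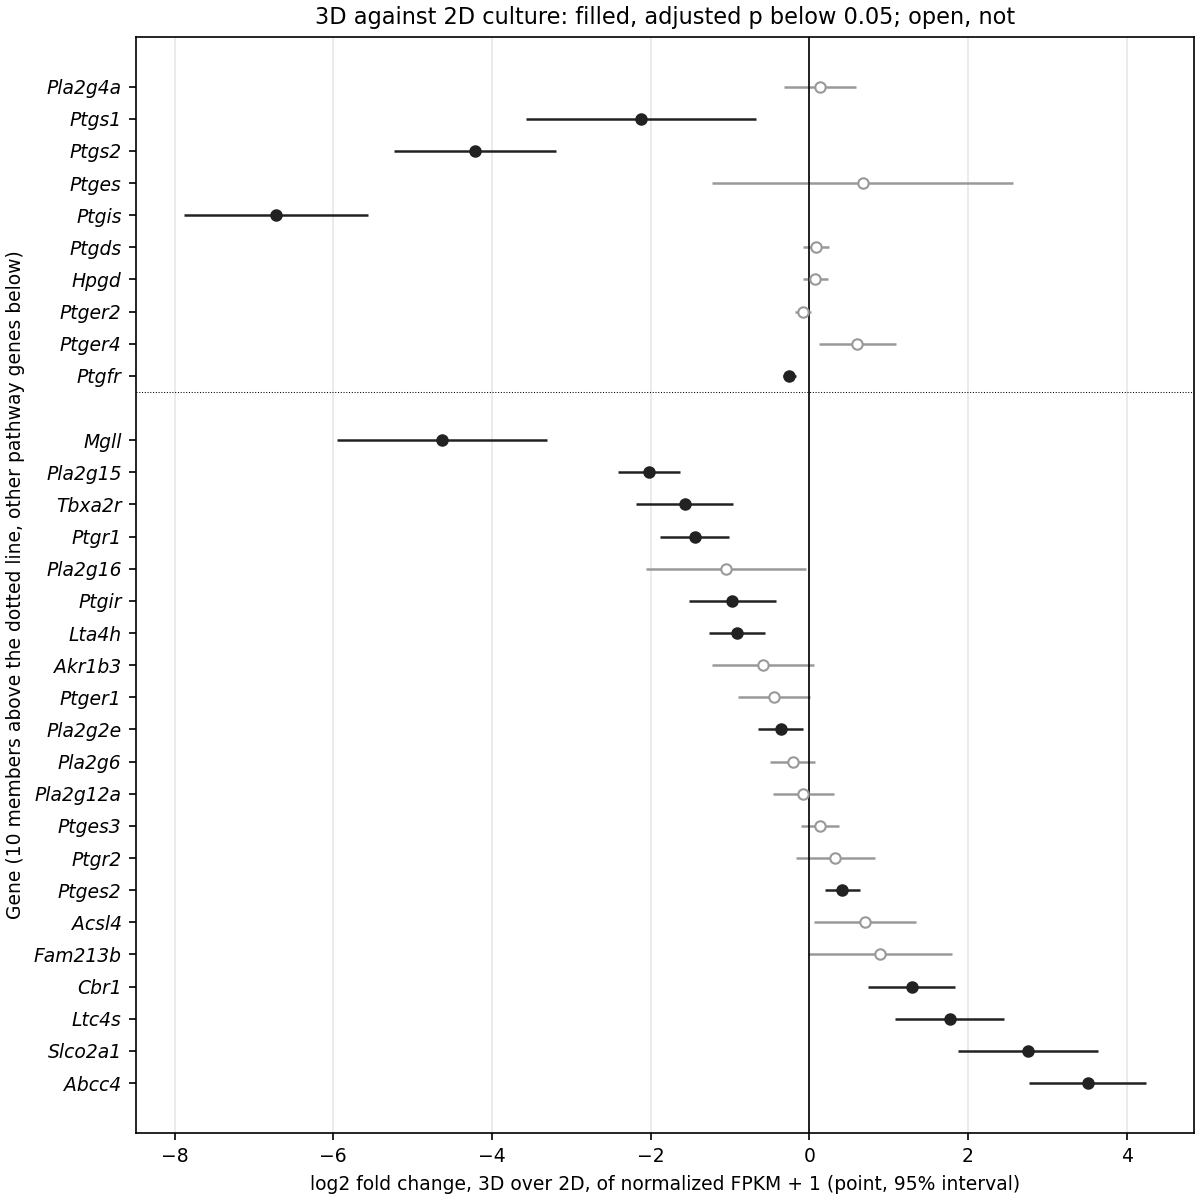
Points are fitted log2 fold changes of normalized FPKM + 1, 3D over 2D, with 95% intervals, for the 10 genes above the dotted line and for named other genes of the pathway below it, filled where the adjusted p was below 0.05. Ptgis (-6.72), Ptgs2 (-4.22) and Ptgs1 (-2.12) lie far to the left, the interval of Ptges spans 0 widely, and Abcc4 (3.51) and Slco2a1 (2.75) lie farthest to the right.

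In order of their mean FPKM, the 10 genes formed 3 steps in each culture, and within a step neighbours overlapped in their range. In 2D, Ptgs2, Ptgis, Ptgs1 and Pla2g4a stood at the top, between percentiles 98.1 and 93.6 of the genes tested. Ptges and Ptger4 followed at percentiles 51.1 and 42.5, and the other 4 were near 0. In 3D, Pla2g4a stood alone at the top at percentile 94.1. Ptgs1, Ptges, Ptgs2 and Ptger4 followed at percentiles 79.4, 68.5, 65.3 and 48.3, and the other 5, now with Ptgis, were near 0. FPKM values are per length of transcript and may be compared between genes to that extent.

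Among 12576 genes that averaged 1 FPKM or more, those whose log2 levels over the 8 libraries were most like Ptgs2 were Tmem70 (Pearson's r = 0.996), Prr5 (0.994) and Tpm1 (0.993), and those most like Ptgs1 were Sfxn3 (0.985), Arpc1b (0.981) and Phldb2 (0.979). The 8 points fall into 2 clusters, the cultures, and share their libraries and scaling, so that r is a description only. The 3 genes most like Ptgs2 had means of 40.8, 9.03 and 1768 FPKM in 2D and 13.8, 1.79 and 146 FPKM in 3D.

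The other genes of the pathway were taken from lists of 53 genes, of which 47 were tested, 4 were at 0 in every library and 2 were not listed under these symbols. Of the 47, 5 were higher and 7 lower in 3D, below the 41.5% called over all genes. However, 10 of the 47 were at or under the level of 3 fragments in both cultures. Among genes that averaged at least 1 FPKM, 9 of 19 were called, against 7003 of 12577 over all genes. These counts, and those of the single lists below, are not read as results about the lists. The split of the 47 became 10 higher and 7 lower with upper-quartile scaling. With the mouse block 0 were called, and 12 had an unadjusted p below 0.05.

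Both transporters of prostaglandins on the lists were higher in 3D, as were 21.2% of all genes tested. Slco2a1, the prostaglandin uptake carrier, had 11.0, 19.7, 29.9 and 10.5 FPKM in 2D (mice 2, 3, 4 and 5) and 68.7, 134, 155 and 124 FPKM in 3D (mice 1, 4, 5 and 7) (log2 fold change 2.75, SE 0.38, adjusted p = 0.00091). Abcc4, an export pump that carries prostaglandins among other substrates, had 9.46, 6.22, 4.63 and 8.58 FPKM in 2D and 78.9, 54.3, 134 and 113 FPKM in 3D (log2 fold change 3.51, SE 0.32, adjusted p = 0.00011). The means in 3D were 6.76 and 13.2 times those in 2D, with no overlap for either gene. Of the breakdown enzymes, Ptgr1, a prostaglandin reductase, fell from 15.4 ± 2.07 to 5.11 ± 1.45 FPKM (SD, n = 4 each, log2 fold change -1.45, SE 0.19, adjusted p = 0.0007). Ptgr2 had means of 14.7 and 18.3 FPKM and was not called (adjusted p = 0.258), but without the 2D libraries of mice 3 and 4 it was called higher in 3D (log2 fold change 0.67 against 0.33, adjusted p = 0.019). The summed epithelial markers rose and the stromal markers fell along with these genes.

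**Figure D5:**
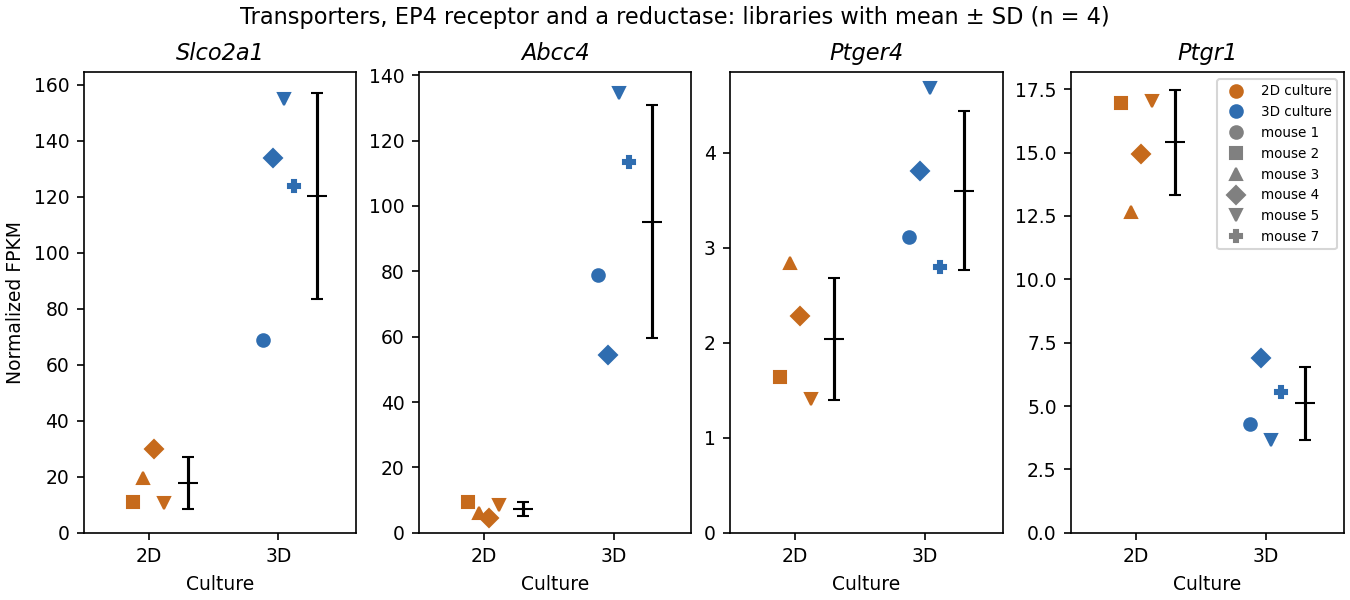
Points are normalized FPKM of single libraries of 2D (orange) and 3D (blue) cultures on axes from 0, with symbols for mice and bars for the mean and SD (n = 4). Slco2a1 and Abcc4 are higher in all 3D libraries, Ptgr1 is lower in all of them, and Ptger4 overlaps by 1 library.

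Among the other 9 synthesis genes tested, 2 were higher and 0 lower in 3D, beside 21.2% higher and 20.3% lower over all genes. Cbr1, a carbonyl reductase that can turn prostaglandin E2 into F2alpha, rose from 22.0 ± 2.91 to 57.2 ± 17.8 FPKM (SD, n = 4 each, log2 fold change 1.29, SE 0.24, adjusted p = 0.00352), and Ptges2, a second prostaglandin E synthase, from 10.4 ± 0.385 to 14.2 ± 1.42 FPKM (log2 fold change 0.42, adjusted p = 0.00948). Ptges3, the cytosolic prostaglandin E synthase, had 133 FPKM in 2D and 146 FPKM in 3D (adjusted p = 0.341), but on the values as deposited it was lower in 3D and called (log2 fold change -0.47, adjusted p = 0.0283), and with upper-quartile scaling it was at -0.33 (0.0506). Akr1b3 had 25.9 and 17.1 FPKM (adjusted p = 0.131, and 0.0403 without the 2D library of mouse 4) and Fam213b 3.50 and 6.78 FPKM (0.107, and 0.0446 with upper-quartile scaling). Of the 3 prostaglandin E synthases, Ptges3 had by far the highest mean in both cultures.

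Of the other 6 receptors, 2 were lower and 0 higher in 3D, beside 20.3% lower and 21.2% higher over all genes. Ptgir, the receptor of prostacyclin, had 0.628, 0.434, 2.29 and 0.907 FPKM in 2D and was listed at 0 in all 3D libraries (adjusted p = 0.0128), so both prostacyclin synthase and its receptor were listed at 0 in 3D. Tbxa2r, the thromboxane receptor, had 2.17, 1.11, 1.29 and 4.12 FPKM in 2D and was also listed at 0 in 3D (adjusted p = 0.00231). Ptger1, the EP1 receptor, had means of 9.35 and 6.43 FPKM and was not called (adjusted p = 0.108, and 0.0235 without the 2D library of mouse 2).

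The list of other phospholipases also holds Mgll and Acsl4. Of its 15 genes tested, 3 were lower and 0 higher in 3D, beside 20.3% lower and 21.2% higher over all genes. Mgll, monoacylglycerol lipase, had 39.3, 41.7, 6.80 and 44.5 FPKM in the 2D libraries and at most 0.549 FPKM in a 3D library (log2 fold change -4.63, SE 0.57, adjusted p = 0.00051). Pla2g15, the lysosomal phospholipase A2, fell from 18.7 ± 3.71 to 3.82 ± 0.586 FPKM (SD, n = 4 each, log2 fold change -2.02, SE 0.17, adjusted p = 6.9e-05). Pla2g2e was called at an adjusted p of 0.0472 with values at or below the level of 3 fragments in both cultures, and it lost the call in 7 of the 8 fits with 1 library left out. Acsl4, an arachidonate-specific acyl-CoA ligase, did not overlap between the cultures, with means of 49.6 and 83.9 FPKM, and was not called (adjusted p = 0.0774). Pla2g16 was not called (log2 fold change -1.05, adjusted p = 0.0911), but it was called lower in 3D without the 2D library of mouse 3 (-1.30, adjusted p = 0.0471) and without those of mice 3 and 4 (-1.74, adjusted p = 0.0088). Pla2g6 and Pla2g12a were not called either, with adjusted p of 0.22 and 0.737.

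In the lipoxygenase arm, which makes leukotrienes from the same substrate, 1 of 13 genes was higher and 1 lower in 3D. Over all genes, 21.2% were higher and 20.3% lower. Ltc4s, leukotriene C4 synthase, rose from 0.898 ± 0.691 to 5.36 ± 1.72 FPKM (SD, n = 4 each, log2 fold change 1.77, SE 0.30, adjusted p = 0.00228), and Lta4h, leukotriene A4 hydrolase, fell from 41.6 ± 3.74 to 22.0 ± 4.73 FPKM (log2 fold change -0.91, SE 0.15, adjusted p = 0.00218). No other gene of this list was called or had a mean of at least 5 FPKM in a culture. Of the 13, 3 were at or under the level of 3 fragments in both cultures. Of the macrophage markers, Cd14 and Cd68 were higher in 3D, while Adgre1 and Lyz2 were listed at 0 there.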

How the data were processed

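Total RNA of the 8 cultures was depleted of ribosomal RNA, made into directional libraries and sequenced in paired ends. The authors assessed read quality (FastQC), trimmed (FASTX_Trimmer, BBMap) and aligned the reads (TopHat, mm10 per the labels) and computed with Cufflinks the deposited FPKM values, without read counts. The annotation and strand setting are not given in the sources used here. Quantile normalization is a later step of the study and is not in the deposited values.

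FPKM values of the 18862 genes above 0 in at least 1 of the 8 libraries were quantile normalized and tested as log2(FPKM + 1) with limma 3.58.1 in R 4.3.3 (moderated test with intensity trend, 3D against 2D, no covariate, Benjamini-Hochberg, threshold 0.05). The test was first run on simulated data with known changes. Mice 4 and 5 gave both cultures, so their libraries are paired by animal. The deviations of a mouse's 2 libraries from their culture means correlated at -0.05 (mouse 4) and -0.11 (mouse 5) over 12577 genes, and the mouse block was an alternative. Depth was estimated from the steps of low FPKM values of 875 long genes with 1 transcript, as 16.4 to 17.4 M fragments in 2D and 14.4 to 15.8 M in 3D, of which the level of 3 fragments follows from the shortest annotated coding transcript. The search was held to 10 to 20 M, because higher depths can score alike. Over the libraries, 69.4 to 84.7% of the low values lay near a whole number of fragments. A greater depth would lower the level of 3 fragments, which covers counting error only. Coordinates are from GENCODE M21 (GRCm38), matched by symbol for 95.7% of the genes listed.

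The 10 genes, the lists, the markers and the tests were chosen with earlier results of these data known. Named were all 10 genes, every other pathway gene called or with a mean of at least 5 FPKM in a culture, and the 3 genes most like Ptgs1 and Ptgs2. Ptgs2os, Ptgs2os2, Ttc33 and the surface markers Ly6a, Cd44 and Eng were named, and the mesothelial sum without Krt19 was taken, after their values were seen. The alternatives were the values as deposited, upper-quartile scaling, no trend, other filters, 0.1 added in place of 1, a block or a random effect for the mouse, mice 4 and 5 alone and each library left out. Leaving out the 2D libraries of mice 3 and 4 together was chosen after seeing the data.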

Additional observations from a re-analysis of the deposited data

Results flagged for a closer look

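In 52 groups of 4 libraries, each a named pathway gene in 1 culture, the highest or lowest library was tested for a gap to the others. Groups whose libraries were all equal, or all at or under the level of 3 fragments, were left out. Of the 52, 4 passed, where chance gives about 1 in 20. Hpgd had 0.241 FPKM with mouse 5 in 3D and 0 to 0.0375 FPKM in the other 3D libraries. Mgll had 6.80 FPKM in the 2D library of mouse 4, against 39.3 to 44.5 FPKM in the others, and 0.549 FPKM in the 3D library of mouse 1, against 0 to 0.0408 FPKM. Acsl4 had 136 FPKM with mouse 5 in 3D and 64.1 to 68.2 FPKM in the other 3D libraries.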

How the results depend on the processing

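With the mouse as a replicate block, 0 of the 10 genes, 0 of the 47 other pathway genes and 0 of all genes were called, with 4, 12 and 5216 at an unadjusted p below 0.05. This fit has 1 residual degree of freedom. With mice 4 and 5 alone, 2 (Ptgs2 and Ptgis), 7 and 3220 were called. With each library left out in turn, the counts were 3 to 4 of the 10, 11 to 13 of the 47 and 6672 to 7534 of all. The log2 fold change of Pla2g4a turned to -0.32 as deposited and to -0.18 with upper-quartile scaling (adjusted p = 0.261 and 0.496), and the cause was not tested. Ptgs1 also lost its call with genes at 0 kept (adjusted p = 0.0548) and with mice 4 and 5 alone (0.127), and Ptgfr with mice 4 and 5 alone (0.0947). No scaling moved the median log2 fold change of all genes beyond 0.03, but this does not show that scaling had no effect. Over all genes, the calls went from 4000 higher and 3823 lower to 4904 higher and 3577 lower with upper-quartile scaling. The FPKM values carry no counts, so genes near 3 fragments are read at best as detected or not.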

Other observations

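Ptgs2 has 2 noncoding genes near it in GENCODE M21, Ptgs2os on the opposite strand from 150074873 to 150099963 of chromosome 1 (GRCm38), which reaches into the promoter window printed above, and Ptgs2os2 from 150159043 to 150164948. Both were looked at after the values were seen. Ptgs2os had 2.58, 1.07, 0.660 and 1.85 FPKM in 2D (mice 2, 3, 4 and 5) and 0.00797, 0.155, 0.0481 and 0.137 FPKM in 3D (mice 1, 4, 5 and 7) (limma, log2 fold change -1.17, SE 0.23, adjusted p = 0.00469). Ptgs2os2 had 9.95, 0.855, 0.789 and 4.92 FPKM in 2D and was listed at 0 in the 4 3D libraries (limma, adjusted p = 0.0287). With the mouse block neither was called (limma, adjusted p = 0.239 and 0.256). In both genes, as in Ptgs2, the 2D library of mouse 2 was the highest and that of mouse 4 the lowest of the 2D libraries.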
